A study of Rattus norvegicus with 15 samples.

Results

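The comparison described here set LID + PD98059 rats against LID + Vehicle rats, that is, an inhibitor of the kinase MEK against its vehicle in animals with L-DOPA-induced dyskinesia (LID). It used 6 of the 15 arrays of the series, 3 per group. The transcripts described are those for which the annotation table of the array gives a single gene symbol, 18511 of the 36685 in the deposited table, with 18166 different symbols. The arrays were Affymetrix Rat Gene 2.0 ST chips hybridised with RNA from the striatum, 1 chip per rat.

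The rats were male Sprague-Dawley rats with a 6-OHDA lesion of the nigrostriatal pathway on one side of the brain, which removes the dopamine input to the striatum of that side, and all of them received L-DOPA daily for 3 weeks. LID + PD98059 rats received PD98059 into a lateral ventricle each day for 12 days, from day 10 of L-DOPA treatment, and LID + Vehicle rats received the vehicle by the same route. Lesion, L-DOPA and the ventricular injections were therefore shared by both groups. The other groups of 3 rats each were LID (lesion and L-DOPA), PD (lesion without L-DOPA) and Normal (sham operation, no lesion), and their values are given beside the members where they help to place a level. A cannula is described for the infused groups alone, so LID rats also differed from both compared groups by cannula and infusion. The drug reached the striatum through the ventricle and was not limited to any cell type. RNA of the striatum on the lesioned side was measured as a whole, so that fewer cells of a type and less RNA per cell cannot be told apart. The paper places collection of the perfused rats a few hours after the last L-DOPA dose. It states no separate time for the rats of the arrays, and levels at other times after a dose were not measured. Phosphorylation, the step that PD98059 blocks, was not measured on these arrays.

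PD98059 binds the inactive form of MEK1 and keeps it from being activated, so that the ERK kinases are not phosphorylated. In a striatal projection neuron, D1 dopamine receptor and glutamate receptor input converge on Ras, Raf, MEK and ERK. Active ERK reaches the nucleus, where it acts through the kinases RSK and MSK on the factor CREB and through Elk-1 on the serum response factor, and immediate early genes such as Fos, Egr1 and Arc are transcribed within minutes. Among the genes so induced are phosphatases (Dusp) and adaptors (Spry, Spred) that switch ERK off again. In the dopamine-denervated striatum L-DOPA activates this pathway in direct pathway neurons, and the Fos family protein ΔFosB accumulates there.

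Values are log2 RMA signals, in which a difference of 1 is a doubling. The adjusted threshold asked for a fold change of 1.2 or more and a limma p under 0.05 after adjustment, and the unadjusted threshold for the same fold and the p before adjustment. Under limma with Benjamini-Hochberg adjustment over all transcripts, 0 of the 18511 reached the adjusted threshold (0.0%), the smallest adjusted p being 0.966, and 924 had an unadjusted p under 0.05 (4.99%). Every difference given below is therefore one that did not pass the adjusted threshold. At the unadjusted threshold 346 transcripts were higher with PD98059 (1.87%) and 409 were lower (2.21%). The 3 arrays of one group lay wholly above or below those of the other for 859 transcripts on the higher side (4.64%) and 814 on the lower side (4.4%). Without any difference, 1 of the 20 splits of 3 against 3 arrays separates the groups on a given side. A share of 0.05 would likewise have a p under 0.05. The shares found were no larger, so a lack of overlap or a small unadjusted p is no evidence by itself for a single gene. The smallest p that exact permutation of 3 against 3 arrays allows is 0.1, so these tests could not reach 0.05.

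Differences were small for most transcripts and larger on the lower side. The middle 95% of log2 fold changes ran from -0.38 to 0.33 with a median of 0.01, and the median standard error was 0.14. A log2 fold change of -1 or less was found for 20 transcripts, and 1 of at least 1 was found, an immunoglobulin segment under the dim level in LID + Vehicle rats. The dim level, 5.85, is the 95th percentile of the signal of 70 olfactory receptor transcripts, which striatum should lack. When each array was centred on its own median, the calls at the unadjusted threshold became 209 higher and 582 lower, so that 26.4% of calls were higher instead of 45.8%, although the median of all transcripts shifted only to -0.022 from 0.013 without centring.

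**Figure D1:**
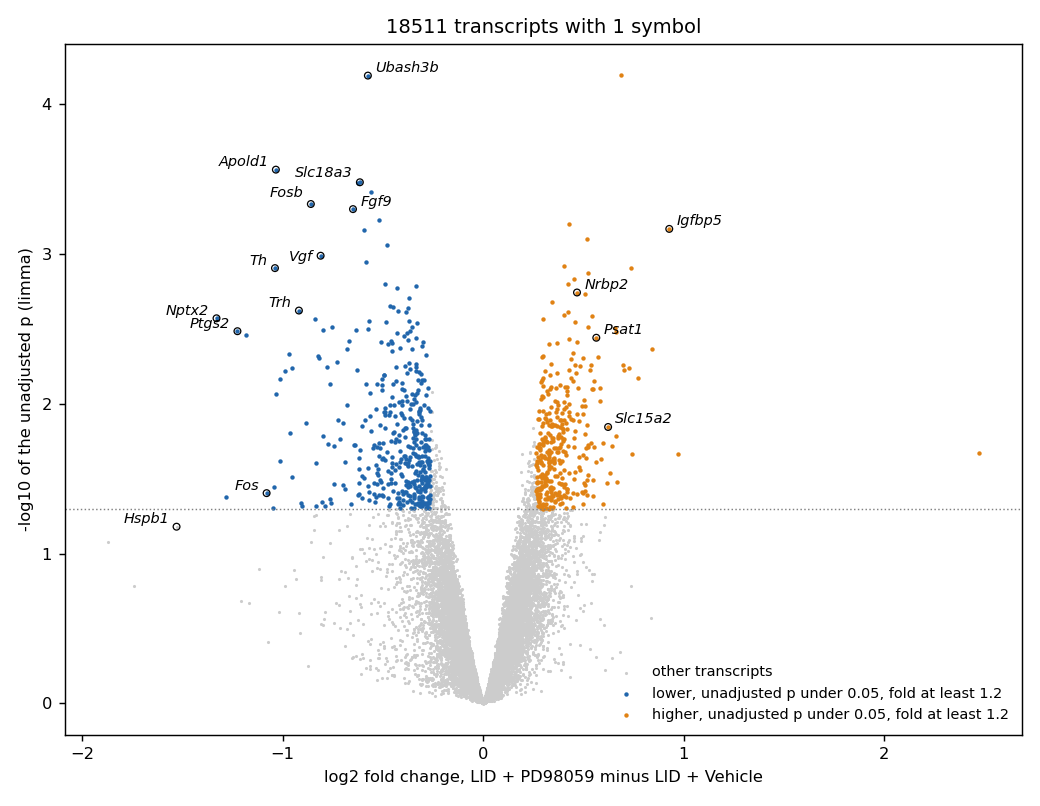
Log2 fold change (x axis, LID + PD98059 minus LID + Vehicle) against −log10 of the unadjusted limma p (y axis) for 18511 transcripts with a single symbol, with transcripts past the unadjusted threshold coloured and the dotted line at p of 0.05. The 20 transcripts at -1 or less stand to the left, among them Nptx2, Ptgs2, Th and Apold1, and Igfbp5 at 0.93 leads the named genes on the right.

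The arrays themselves differed within groups. LID + Vehicle replicate 1 stood furthest from the mean of the 6 arrays (SD of its deviations 0.33, against 0.17 to 0.26 for the others). Its mean signal over 16 identity genes of striatal projection neurons was 9.05, while the other LID + Vehicle arrays were at 9.78 and 9.88 and the LID + PD98059 arrays at 9.89, 9.59 and 9.70. The defining striatal genes were bright on every array, with Ppp1r1b (DARPP-32) between 10.59 and 11.13 and Drd2 between 9.37 and 10.81, the lowest value of each in LID + Vehicle replicate 1. Slc17a7, the vesicular glutamate transporter of cortical neurons, was at 6.55, 8.04 and 9.30 with PD98059 and at 9.68, 7.39 and 7.19 with vehicle, and the 6 cortical markers measured averaged 5.65, 6.15 and 6.77 against 6.72, 5.86 and 5.87. List values that shifted markedly when an array was left out are given in both forms. The lists were chosen with earlier results of these data known. Over all symbols, 48.5% had a log2 fold change under 0, 2.23% were lower at the unadjusted threshold and 1.89% were higher. These are the shares to set beside each list count below.

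A large set of lower values lay in genes that neuronal activity and ERK induce. Of 68 such genes measured, in lists of immediate early transcription factors, activity-induced effectors and ERK feedback genes, 62 had a log2 fold change under 0 (48.5% of all symbols did), and their median was -0.42, against 0.01 over all members. Of the 68, 26 were lower at the unadjusted threshold (38.2%, against 2.23% of all symbols) and 0 were higher (1.89%), while for 20 the LID + PD98059 arrays lay wholly under the LID + Vehicle arrays (4.41% of all symbols). LID + Vehicle replicate 1 was the highest of the 6 arrays for 52 of the 68 and the highest of all 15 arrays for 46. Without that array the median was -0.20, 51 of 68 were under 0 and 13 were lower at the unadjusted threshold (1.82% of members), and without each other array in turn 19 to 36 were. A LID + PD98059 array was the lowest of the 6 for 56 of the 68. The same LID + Vehicle array was the lowest of the 6 in projection neuron identity genes (9.05) and the highest in reactive astrocyte markers (9.35), and the part of these in the difference was not tested.

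Promoter sequence is shown for genes in which the elements that Elk-1 with serum response factor (the CArG box) and CREB (the CRE, TGACGTCA) bind could be found close to the start of transcription. The 250 bases before the start were searched, on both strands since either element reads alike on each, and no CRE overlaps a CArG box in the sequences printed. Sequences are RefSeq promoters of the GRCr8 build, and 52 of the 68 genes had one. Of those, 6 held the CRE and 6 held a CArG box (11.5% each), against 1.7% and 1.5% of 27457 rat promoters. The lists were made of genes known for induction by activity and ERK, so these shares tell nothing about the response to PD98059. A match describes the letters and is no evidence of binding, and members with an element ranged widely, from Dusp1 (-0.83) to Epha2 (-0.02), Jund (-0.07) and Etv1 (0.18). The 150 bases before the start are printed with the element in capitals, for Egr2 and Dusp5 (CArG box) and for Vgf and Th (CRE), chosen because they were lower with PD98059, Vgf and Th being outside the 68 genes. The log2 fold changes of Egr2 (-0.74) and Dusp5 (-0.62) both became -0.25 without LID + Vehicle replicate 1.
Egr2, chr20:21054442-21054591, minus strand: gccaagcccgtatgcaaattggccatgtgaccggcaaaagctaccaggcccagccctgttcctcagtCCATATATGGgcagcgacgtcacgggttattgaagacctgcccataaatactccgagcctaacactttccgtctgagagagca
Dusp5, chr1:262543624-262543773, plus strand: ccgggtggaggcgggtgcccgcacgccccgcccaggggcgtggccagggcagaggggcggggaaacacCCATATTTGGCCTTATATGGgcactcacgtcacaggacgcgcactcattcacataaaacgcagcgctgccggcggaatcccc
Vgf, chr12:25277021-25277170, minus strand: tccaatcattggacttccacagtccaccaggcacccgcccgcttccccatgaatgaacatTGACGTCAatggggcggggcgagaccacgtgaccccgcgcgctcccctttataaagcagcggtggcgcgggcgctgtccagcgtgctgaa
Th, chr1:207508219-207508368, minus strand: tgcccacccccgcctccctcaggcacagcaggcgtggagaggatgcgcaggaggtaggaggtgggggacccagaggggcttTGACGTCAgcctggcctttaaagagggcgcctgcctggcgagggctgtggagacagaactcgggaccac
The CArG box of Egr2 begins 83 bases before the start. In Dusp5 a pair of CArG boxes stands end to end, at 82 and 72 bases. The CRE lies 90 bases before the start of Vgf and 69 bases before that of Th.

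Immediate early transcription factors were lower with PD98059 in 6 of 26 cases at the unadjusted threshold, and 24 of the 26 had a log2 fold change under 0 (median -0.37). Without LID + Vehicle replicate 1 the median was -0.11, with 19 under 0 and 4 called, and without LID + Vehicle replicate 3 it was -0.56 with 11 called. Fosb, the gene of ΔFosB, was at 6.41, 5.93 and 6.57 in LID + PD98059 rats, against 7.41, 7.10 and 6.97 in LID + Vehicle rats. The groups did not overlap, and the LID + PD98059 values were also under those of LID rats, at 6.83, 7.02 and 6.65, and of PD rats, which averaged 6.78. The log2 fold change of Fosb was -0.86 (SE 0.18, limma unadjusted p = 0.000462, exact permutation p = 0.1), and it stayed between -0.99 and -0.67 when any array was left out. These values are of the brightest transcript with this symbol alone. The paper doubts the design of the probes for this gene. It reports that only 1 of 4 rose with L-DOPA and fell with PD98059, a probe set listed under another symbol. By RT-qPCR in other rats the paper reports the same pattern for FosB. It also reports less ΔFosB protein and fewer FosB-ΔFosB positive cells with PD98059.

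Egr3, a zinc finger factor induced downstream of ERK, was at 7.97, 7.06 and 7.91 with PD98059 and at 8.34, 8.55 and 8.44 with vehicle. Its LID + Vehicle arrays lay close together, so that the log2 fold change was -0.80 with all arrays and -0.85 without replicate 1. In LID rats Egr3 averaged 8.29 and in PD rats 7.33. Egr1 was 0.58 lower and its groups overlapped by a single pair of arrays (9.13, 8.73 and 8.47 against 9.62, 9.07 and 9.36). Klf10, a factor induced by growth signals, was at 6.96, 6.33 and 6.98 against 7.37, 7.24 and 7.17.

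Fos and Egr2 rested on 1 array. Fos was at 6.39, 7.04 and 5.98 with PD98059 and at 8.97, 7.12 and 6.56 with vehicle, a log2 fold change of -1.08 (SE 0.47, p = 0.0394, exact permutation p = 0.2) that became -0.37 (limma p = 0.235) without LID + Vehicle replicate 1. Egr2 was at 5.64, 5.65 and 5.58 against 7.36, 5.84 and 5.90, with the LID + PD98059 group under the dim level, and went to -0.25 without that replicate. Npas4, a factor that responds to calcium entry in neurons, was at 7.30, 6.45 and 6.47 with PD98059, against 8.70, 6.75 and 6.61 with vehicle, and its groups overlapped. Jun, Junb, Nr4a1 and Atf3 overlapped too, with log2 fold changes of -0.66, -0.38, -0.32 and -0.40. Npas4 was at 0.06 without LID + Vehicle replicate 1, Junb at 0.11 and Atf3 at 0.02. Klf2 at 0.18 and Nr4a2 near 0 were the members not under 0.

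**Figure D2:**
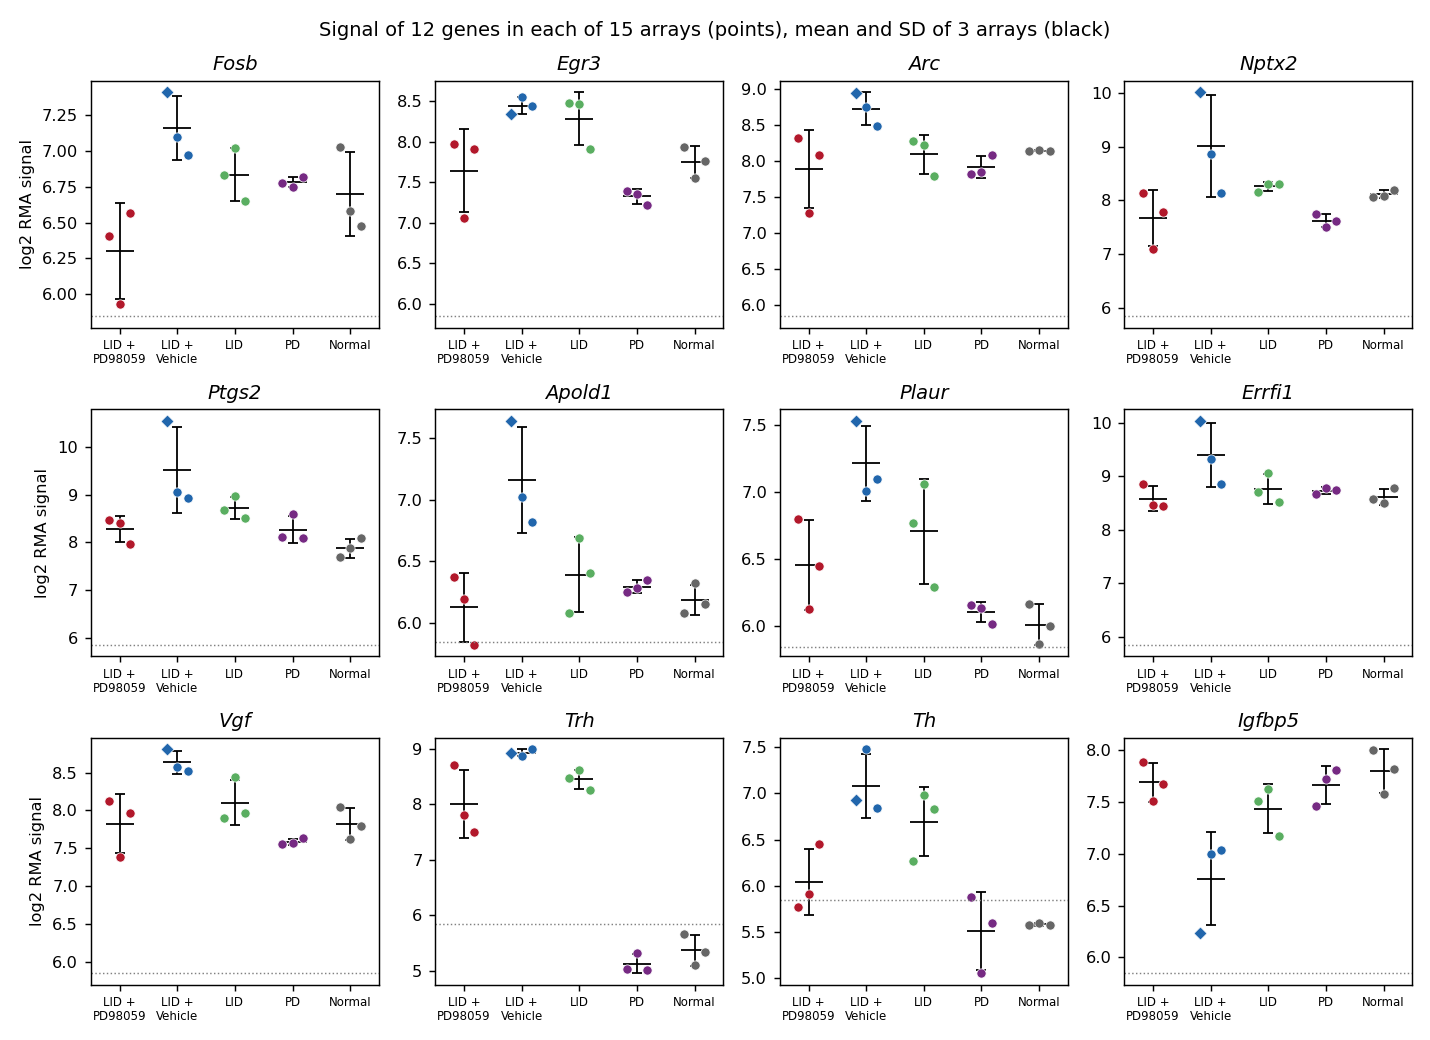
Log2 RMA signal of 12 genes on each array (points), with the mean and SD of the 3 arrays of a group in black, the dim level of 5.85 as a dotted line and LID + Vehicle replicate 1 as a diamond. Fosb, Egr3, Arc, Vgf and Th lie lower in all 3 LID + PD98059 arrays than in all 3 LID + Vehicle arrays, and Igfbp5 lies higher.

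All 18 effectors of activity that were measured had a log2 fold change under 0 (median -0.61), and 13 were lower at the unadjusted threshold. Leaving out LID + Vehicle replicate 1 gave a median of -0.39, 17 under 0 and 6 called, and leaving out LID + PD98059 replicate 3 gave 8 called. Nptx2, a pentraxin secreted at excitatory synapses, was at 8.13, 7.10 and 7.79 in LID + PD98059 rats, against 10.01, 8.87 and 8.13 in LID + Vehicle rats. This was the lowest log2 fold change among called members, -1.33 (SE 0.36, p = 0.00268, exact permutation p = 0.1), and it was -0.83 without LID + Vehicle replicate 1. Ptgs2, the inducible cyclooxygenase, was at 8.47, 8.40 and 7.97 against 10.55, 9.06 and 8.92. Its log2 fold change was -1.23, or -0.71 without that replicate.

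Arc, which drives internalisation of AMPA receptors at synapses, was at 8.32, 7.28 and 8.09 with PD98059 and at 8.95, 8.75 and 8.49 with vehicle. The groups did not overlap and the log2 fold change was -0.84 (SE 0.23, p = 0.00272, exact permutation p = 0.1). Apold1, an immediate early gene of vascular endothelium, was at 6.37, 6.19 and 5.82 against 7.64, 7.02 and 6.82, with a log2 fold change of -1.03 (SE 0.21, limma p = 0.000273, exact permutation p = 0.1). Sik1, a kinase that CREB induces and that restrains CREB through its coactivators, was at 7.50, 7.31 and 7.29 against 8.05, 7.73 and 7.76, close to the PD mean of 7.28 and lower than LID arrays at 7.62, 7.84 and 7.54.

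The remaining effectors leaned on LID + Vehicle replicate 1 to different degrees. Sgk1, a kinase that glucocorticoids also induce, was 0.61 lower with all arrays and 0.63 lower without it. For Ccn1, a matrix protein of the CCN family, the values were 5.22, 5.81 and 4.96 against 7.61, 6.24 and 5.26, and the log2 fold change of -1.04 became -0.42. Gadd45g, a stress and DNA demethylation factor, was 1.01 lower with all arrays and 0.40 lower without that array. Bdnf, the neurotrophin, was at 5.80, 5.98 and 6.10 with PD98059, against 6.83, 5.72 and 5.52 with vehicle, and its log2 fold change of -0.06 turned to 0.34.

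Among 24 genes that ERK induces and that mostly restrain growth factor signalling, 20 had a log2 fold change under 0 (median -0.34) and 7 were lower at the unadjusted threshold. These became 15 under 0, a median of -0.15 and 3 called without LID + Vehicle replicate 1, and 11 called without LID + Vehicle replicate 3. Errfi1, an inhibitor of the epidermal growth factor receptor, was at 8.85, 8.46 and 8.44 in LID + PD98059 rats, against 10.04, 9.33 and 8.85 in LID + Vehicle rats. The groups touched at 8.85, and the log2 fold change was -0.82 (SE 0.24, p = 0.00494, exact permutation p = 0.2) or -0.50 without replicate 1. Plaur, the urokinase receptor, was at 6.80, 6.13 and 6.45 with PD98059 and at 7.53, 7.01 and 7.10 with vehicle. It did not overlap, at a log2 fold change of -0.75 (SE 0.21, p = 0.00308, exact permutation p = 0.1), and PD rats averaged 6.11.

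The phosphatases and adaptors that act on ERK itself were less uniform. Dusp4, a nuclear ERK phosphatase, was at 6.09, 5.68 and 6.02 against 6.47, 6.15 and 6.47 without overlap. Dusp5, the nuclear phosphatase with paired CArG boxes, was at 5.37, 5.40 and 5.11 with PD98059 and at 6.66, 5.36 and 5.72 with vehicle, so that only LID + Vehicle replicate 1 was above the dim level. Dusp6, the cytoplasmic ERK phosphatase that is widely read as a gauge of ERK output, was at 7.23, 7.59 and 7.09 against 8.51, 7.46 and 7.37, with a log2 fold change of -0.48 (p = 0.127, exact permutation p = 0.3) and overlapping groups. Spry2 was 0.37 lower and Spry4 0.30 lower, while the ETS factors Etv1 and Etv4 were 0.18 and 0.11 higher. The cytokine Lif and the growth factor Hbegf had large differences, of -0.99 and -0.95, that came from LID + Vehicle replicate 1 alone, where they read 8.74 and 9.02 while every other array of the 6 was between 5.09 and 6.11.

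**Figure D3:**
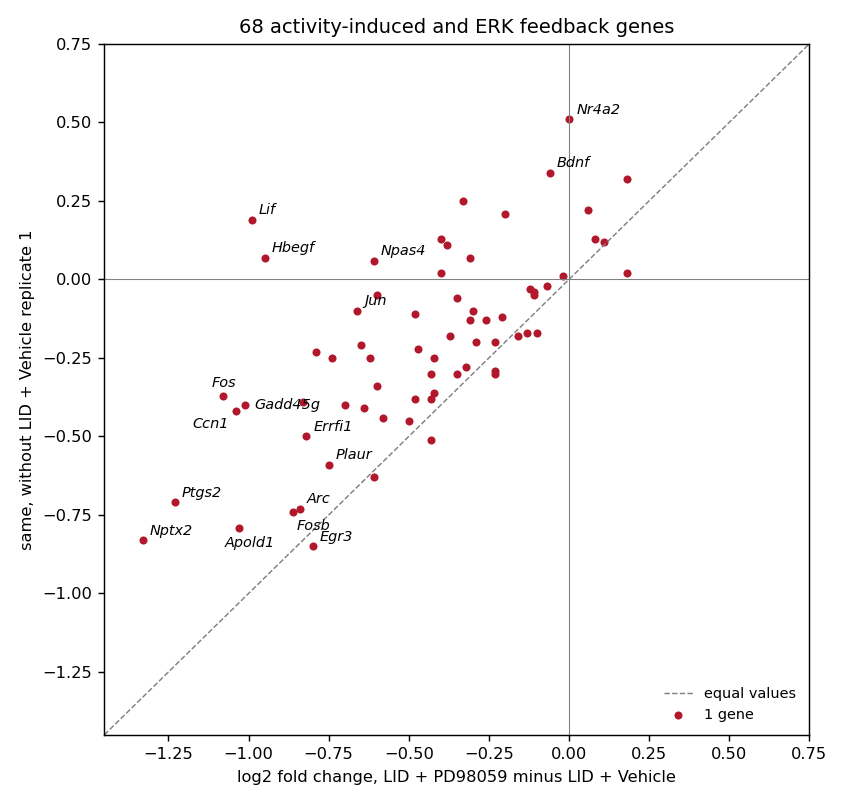
Log2 fold change of each of 68 activity-induced and ERK feedback genes with all 6 arrays (x axis) and without LID + Vehicle replicate 1 (y axis), the dashed line marking equal values. Most genes lie above the line, nearer to 0 without that array, while Egr3, Fosb, Arc, Apold1, Nptx2 and Ptgs2 remain at -0.71 or less.

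Of the 409 members lower at the unadjusted threshold, 95 stayed past it whichever of the 6 arrays was left out, which is 0.513% of all members, and of the 346 higher ones 60 did (0.324%). Both group means were under the dim level for 39 of those 60 and for 16 of the 95, and the 60 included 12 olfactory receptors. Of the 68 activity-induced and ERK feedback genes 12 were in that lower set (17.6%), namely Apold1, Fosb, Sik1, Nptx2, Arc, Plaur, Egr1, Egr3, Phlda1, Ptgs2, Errfi1 and Klf10. Phlda1, a regulator of receptor kinase trafficking, was at 6.95, 7.02 and 6.96 with PD98059, against 8.07, 7.52 and 7.24 with vehicle. Outside the lists, and picked out after their values were seen, were Wfs1, an endoplasmic reticulum protein (9.56, 9.40 and 9.54 against 10.89, 9.82 and 9.98), and Slc38a2, an amino acid transporter (9.28, 9.35 and 9.44 against 9.88, 9.79 and 9.90).

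The transcripts of the cascade that PD98059 acts on lay close to 0. Of 28 measured components of the Ras and ERK cascade 20 had a log2 fold change under 0, with a median of -0.06, and 2 were lower at the unadjusted threshold (1 without LID + Vehicle replicate 1, 0 without LID + PD98059 replicate 3). Map2k1, which encodes MEK1, was at 9.56, 9.71 and 9.51 in LID + PD98059 rats, against 9.78, 9.75 and 9.77 in LID + Vehicle rats, a log2 fold change of -0.17 (SE 0.10, p = 0.11, exact permutation p = 0.1) between groups that did not overlap. Map2k2, for MEK2, was at 8.43, 8.54 and 8.72 against 8.47, 8.44 and 8.50. The called members were Grb2, the adaptor that links receptors to Sos (9.17, 9.02 and 8.91 against 9.66, 9.31 and 9.10), and Rps6ka3, which encodes the ERK substrate RSK2 and was 0.32 lower without overlap.

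In the other MAP kinase cascades, 15 of 20 members were under 0 (median -0.10). Map2k6, a kinase that activates p38, was at 7.02, 7.27 and 7.09 with PD98059, against 6.15, 6.74 and 7.06 with vehicle, a log2 fold change of 0.48 with overlap. Mapk10, the neuronal JNK3, was 0.31 lower without overlap. Neither was called without LID + Vehicle replicate 1. Of 16 CREB pathway genes, Sik1 and Prkar1b, a regulatory subunit of protein kinase A, were lower at the unadjusted threshold (median of the list -0.06), 1 of them also without LID + Vehicle replicate 1.

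**Figure D4:**
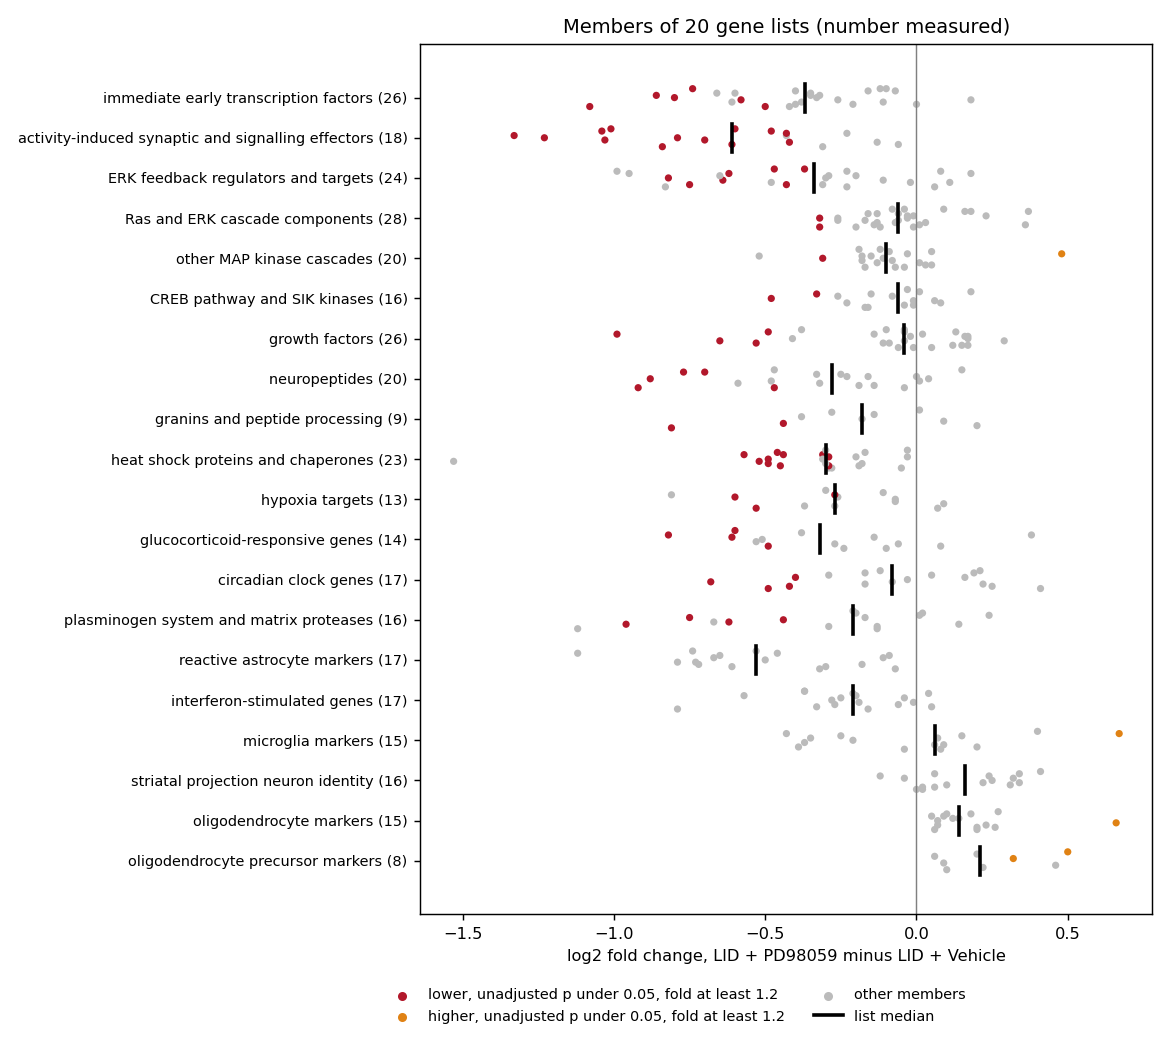
Log2 fold change (x axis, LID + PD98059 minus LID + Vehicle) of each member (points) of 20 gene lists, with the list median as a bar and members past the unadjusted threshold in red (lower) or orange (higher). Red points gather in the activity, ERK feedback and heat shock lists, the cascade lists centre near 0, and the reactive astrocyte list lies to the left with no coloured point.

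Growth factors and secreted signals held several of the clearest single differences. Fgf9, a fibroblast growth factor made by neurons, was at 6.64, 6.48 and 6.52 in LID + PD98059 rats, against 7.20, 7.19 and 7.20 in LID + Vehicle rats. The vehicle arrays were nearly equal, and the log2 fold change was -0.65 (SE 0.14, p = 0.0005, exact permutation p = 0.1). Inhba, the activin subunit, was at 8.80, 7.74 and 8.25 with PD98059 and at 9.70, 8.93 and 9.14 with vehicle, without overlap. Vegfa was 0.53 lower and Fgf2 0.49 lower, both with overlap. At the unadjusted threshold 4 of 26 growth factors were lower (2.23% of all symbols) and 0 were higher (median -0.04). With LID + Vehicle replicate 1 left out, 2 were lower.

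Igfbp5, which binds insulin-like growth factors in the extracellular space, was the named gene with the highest log2 fold change. It was at 7.89, 7.51 and 7.67 with PD98059, against 6.24, 7.00 and 7.04 with vehicle, 0.93 higher (SE 0.21, p = 0.000678, exact permutation p = 0.1) and 0.67 higher without LID + Vehicle replicate 1. LID rats were at 7.51, 7.63 and 7.17, PD rats averaged 7.66 and Normal rats 7.80, so that the LID + Vehicle arrays were the low ones of the series. Of the other 15 genes of the insulin-like growth factor system, 0 were past the unadjusted threshold in either direction.

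Neuropeptide precursors were under 0 in 16 of 20 cases (median -0.28) and lower at the unadjusted threshold in 5 (2.23% of all symbols). The median was -0.14 with 3 called without LID + Vehicle replicate 1, and -0.13 with 2 called without LID + PD98059 replicate 2. Trh, the precursor of thyrotropin-releasing hormone, was at 8.70, 7.81 and 7.51 in LID + PD98059 rats, against 8.93, 8.86 and 8.99 in LID + Vehicle rats. The log2 fold change was -0.92 (SE 0.24, p = 0.00238, exact permutation p = 0.1). Its LID + PD98059 arrays remained far over PD rats, at 5.13 on average, and Normal rats, at 5.37. LID + PD98059 replicate 1 stood close to the vehicle arrays and the other LID + PD98059 arrays lay well under them.

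Nts, the neurotensin precursor, was at 8.53, 7.84 and 8.08 with PD98059, against 9.42, 8.98 and 8.69 with vehicle. Npy, the neuropeptide Y of an interneuron class, was at 8.85, 8.40 and 8.94 against 10.36, 8.91 and 9.25, with overlap. Nmu and Pnoc, the precursors of neuromedin U and nociceptin, were 0.70 and 0.47 lower without overlap. The classical projection neuron peptides differed little. Pdyn, the dynorphin precursor of direct pathway neurons, was at 10.11, 9.48 and 9.43 with PD98059 and at 9.32, 10.09 and 10.09 with vehicle, over a PD mean of 7.90. Penk of the indirect pathway was 0.14 lower and Tac1 0.25 lower, both overlapping.

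Vgf, a granin-like peptide precursor with a CRE in its promoter, was at 8.13, 7.38 and 7.97 in LID + PD98059 rats, against 8.81, 8.58 and 8.52 in LID + Vehicle rats. The groups did not overlap, the log2 fold change was -0.81 (SE 0.19, p = 0.00102, exact permutation p = 0.1), and PD rats averaged 7.59. Chga, chromogranin A of dense core vesicles, was at 8.22, 7.55 and 8.22 against 8.54, 8.30 and 8.47. Syt4, a synaptotagmin of dense core vesicles, was at 8.27, 7.95 and 8.20 against 8.79, 8.74 and 8.64. In both, LID + PD98059 replicate 2 was the lowest array.

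Th, tyrosine hydroxylase, the enzyme that sets the rate of dopamine synthesis, was at 5.77, 5.91 and 6.45 with PD98059, against 6.93, 7.48 and 6.84 with vehicle. The log2 fold change was -1.04 (SE 0.25, p = 0.00124, exact permutation p = 0.1) and stayed between -1.24 and -0.84 when any array was left out. LID rats were at 6.27, 6.98 and 6.83 and PD and Normal rats averaged 5.51 and 5.58, under the dim level, so that in this array Th was near background in striatum without L-DOPA. The other 12 catecholamine genes measured held no call at the unadjusted threshold, with Ddc 0.09 higher and Slc6a3, the dopamine transporter, under the dim level on every array.

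Slc18a3, the vesicular acetylcholine transporter of cholinergic interneurons, was at 5.41, 5.31 and 5.38 with PD98059 and at 6.03, 5.92 and 6.00 with vehicle. The arrays of each group agreed closely and the log2 fold change was -0.61, but the LID + PD98059 group was under the dim level, and set at that level the difference was -0.14. Chat, the synthetic enzyme of the same cells, was 0.16 lower with overlap.

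Ubash3b, a phosphatase that acts on receptor and Syk family tyrosine kinase signalling, had the smallest p among members over the dim level. It was at 7.06, 7.04 and 7.10 in LID + PD98059 rats, against 7.71, 7.57 and 7.64 in LID + Vehicle rats, a log2 fold change of -0.57 (SE 0.10, p = 6.42e-05, exact permutation p = 0.1, adjusted p = 0.966). Each group spanned less than 0.15, and LID rats were between, at 7.35, 7.39 and 7.42, over PD rats at 6.84. Gpat3, an enzyme of glycerolipid synthesis, was at 6.05, 6.26 and 6.10 with PD98059, against 6.88, 6.92 and 6.49 with vehicle, while LID rats were at 6.09, 6.14 and 6.36.

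Ubash3b, Gpat3, Sik1, Plaur and Th belong to 13 genes that the study singled out for opposite responses to L-DOPA and to PD98059. They were chosen on these same arrays, so that their direction here is not independent evidence. All 13 were under 0 in this comparison (median -0.55) and 11 were lower at the unadjusted threshold. The others were Arnt, the partner subunit of hypoxia-inducible factors, at 8.38, 8.44 and 8.53 against 8.27, 8.68 and 8.56, and RGD1564887, 0.12 lower. For Th and Arnt the paper also reports lower values with PD98059 by RT-qPCR in other rats, and fewer TH and ARNT positive cells. Of 9 genes measured from the study's opposite list 4 were higher at the unadjusted threshold, Srpk3, Hook2, Zfp316 and Map2k6, all with overlapping groups and 0 of them called without LID + Vehicle replicate 1, and Runx1 and Ephb2 were 0.37 and 0.16 lower.

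Heat shock proteins and chaperones lay on the lower side as a list. All 23 measured had a log2 fold change under 0 (48.5% of all symbols did), with a median of -0.30. At the unadjusted threshold 10 were lower (2.23% of all symbols). Chordc1, a cochaperone of Hsp90, was at 8.15, 8.08 and 8.13 in LID + PD98059 rats, against 8.45, 9.09 and 8.53 in LID + Vehicle rats. Dnaja1, an Hsp40 partner of Hsc70, was at 10.13, 9.95 and 9.89 against 10.33, 10.76 and 10.33, and Stip1, which links Hsp70 to Hsp90, was at 9.94, 9.84 and 9.82 against 10.22, 10.66 and 10.08. LID + Vehicle replicate 2, not replicate 1, was the high array in these genes. Without replicate 2 the median was -0.18 and 4 were called, without replicate 3 it was -0.39 and 13 were called, and without replicate 1 the median was -0.35 and 10 were called. The mean level of the list was 8.86 with PD98059, 9.21 with vehicle, 8.98 in LID rats and 8.79 in PD rats.

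Hspa5, the chaperone BiP of the endoplasmic reticulum, was at 10.89, 11.05 and 10.78 with PD98059, against 11.28, 11.77 and 10.98 with vehicle, with overlap. Hspb1, a small heat shock protein of reactive glia, had the lowest log2 fold change of the list, -1.53, but ranged widely at 6.28, 7.97 and 5.32 against 9.57, 8.60 and 5.98 (p = 0.0661, exact permutation p = 0.3). P4ha1, a collagen prolyl hydroxylase that hypoxia induces, was at 8.90, 9.14 and 9.17 with PD98059, against 9.77, 9.87 and 9.36 with vehicle. The log2 fold change was -0.60 without overlap, and 11 of 13 hypoxia targets were under 0 (median -0.27, 3 called), or 12 of 13 without LID + Vehicle replicate 1 (median -0.14, 1 called), with 5 called without LID + Vehicle replicate 3. The mean level of the hypoxia targets was 8.16 with PD98059, 8.43 with vehicle and 8.18 in LID rats.

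Of 14 glucocorticoid-responsive genes 12 were under 0 (median -0.32) and 4 were called lower (2.23% of all symbols). These were Errfi1, Sgk1, Per1 and Cdkn1a, 3 of which also stand in the activity or ERK feedback lists. Without LID + Vehicle replicate 2 the median was -0.07 and 2 were called, and without LID + PD98059 replicate 3 it was -0.22 with 2 called. The mean level of the list was 8.41 with PD98059, 8.72 with vehicle and 8.40 in LID rats. Fkbp5 and Tsc22d3, which respond to the glucocorticoid receptor more specifically, were at -0.24 and 0.08 and were not called. Clock genes were divided, with 10 of 17 under 0 (median -0.08) and 4 called lower (2.23% of all symbols), or 2 called without LID + PD98059 replicate 2. Per1 was at 7.81, 7.24 and 7.18 with PD98059 and at 7.83, 7.94 and 7.95 with vehicle, Per2 was 0.40 lower, and Nfil3, a clock output repressor, was at 5.86, 5.87 and 5.76 against 6.97, 6.57 and 5.98. In Nfil3 the LID + PD98059 level was at the dim level.

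In the plasminogen and matrix protease list 12 of 16 were under 0 (median -0.21) and 4 were called lower (2.23% of all symbols). These were Plaur, Mmp14, Adamts1 and Adamts9, but 1 was called without LID + Vehicle replicate 1 (median -0.15). Adamts1, a secreted protease, was at 6.18, 6.55 and 6.71 with PD98059, against 8.71, 7.00 and 6.61 with vehicle, and its difference rested on LID + Vehicle replicate 1. Mmp14, a membrane protease, was at 6.04, 6.08 and 5.91 against 6.80, 6.23 and 6.33. The 19 collagens and laminins had a median of 0.02 and held 0 calls.

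**Figure D5:**
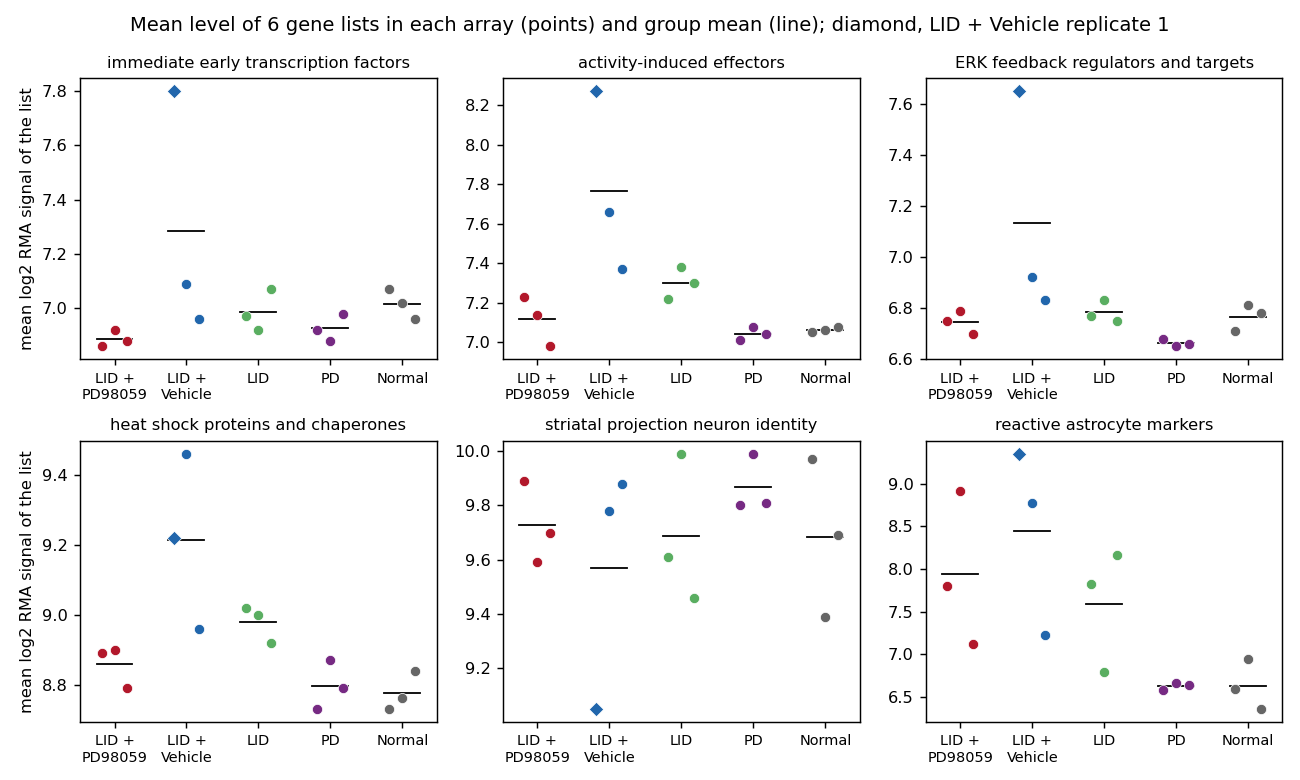
Mean log2 RMA signal of 6 gene lists on each array (points) with the group mean as a line and LID + Vehicle replicate 1 as a diamond. The activity and ERK feedback lists are lower on all 3 LID + PD98059 arrays than on all 3 LID + Vehicle arrays, by little where replicates 2 and 3 are concerned, and the projection neuron and reactive astrocyte lists overlap.

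Glial lists had medians on either side of 0 with all arrays. Astrocyte markers outside the reactive list were over 0 in 10 of 10 cases (median 0.1, 0 called). Their median was -0.02 without LID + Vehicle replicate 1. All 17 reactive astrocyte markers were under 0 (median -0.53), yet 0 were called in either direction, and the arrays of each group were spread widely. Their mean was 7.80, 8.92 and 7.12 on LID + PD98059 arrays and 9.35, 8.77 and 7.23 on LID + Vehicle arrays, and the median was -0.04 without LID + Vehicle replicate 1 and -1.18, with 9 calls, without LID + Vehicle replicate 3. Gfap itself was at 11.06, 11.99 and 10.84 against 11.84, 11.42 and 10.84. Interferon-stimulated genes averaged 6.36, 8.26 and 6.32 with PD98059, against 8.05, 7.55 and 6.04 with vehicle, and the sign of their median depended on the array left out (-0.86 to 0.19). Ccl2, a monocyte chemokine, was at 6.41, 9.43 and 5.99 against 11.05, 9.78 and 6.21.

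Oligodendrocyte lineage genes lay on the higher side. All 8 precursor markers had a log2 fold change over 0 (median 0.21), and 2 were called higher (1.89% of all symbols). These were Neu4, a sialidase (6.74, 6.38 and 6.35 against 5.85, 5.85 and 6.26), and Cspg4, which encodes NG2 (7.38, 7.30 and 7.20 against 6.77, 7.01 and 7.14). All 15 markers of mature oligodendrocytes were over 0 as well (median 0.14), with Opalin called at 0.66 and Mbp at 0.06. Over all symbols 51.5% were over 0. Without LID + Vehicle replicate 1 the precursor median was 0.13 with 1 of 8 under 0 and 1 called, and the oligodendrocyte median was 0.06 with 4 of 15 under 0 and 0 called. Without LID + PD98059 replicate 3 these medians were 0.12 and 0.05, again with 0 oligodendrocyte markers called. Microglial markers had a median of 0.06, the sign of which depended on the array left out (-0.28 without LID + PD98059 replicate 2 and 0.33 without LID + PD98059 replicate 3). Gpr34, a lysophospholipid receptor of microglia, was 0.67 higher with overlap.

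Other named genes higher with PD98059 had smaller differences than Igfbp5. Aldh4a1, an enzyme of proline breakdown, was at 6.47, 6.60 and 6.33 in LID + PD98059 rats, against 6.01, 6.19 and 5.98 in LID + Vehicle rats. Nrbp2, a pseudokinase, was at 9.53, 9.52 and 9.71 against 9.09, 9.10 and 9.16, and Psat1, of serine synthesis, was at 10.34, 9.91 and 10.16 against 9.32, 9.63 and 9.77. None of these groups overlapped. Nkd1, a Wnt pathway inhibitor, was 0.43 higher, Vars2, a mitochondrial valyl-tRNA synthetase, 0.40 higher, Acat1, of ketone and isoleucine metabolism, 0.30 higher, and Slc15a2, a peptide transporter of glia, 0.62 higher. Among 20 serine synthesis and ATF4 targets 14 were nevertheless under 0 (median -0.14), with Atf4 itself 0.47 lower.

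LID against PD, whose group means share no array with this comparison, allows the L-DOPA response of the same members to be set beside their response to PD98059. Both comparisons used the spread pooled over all groups, so a member with a small pooled spread was more easily called in both. The calls are therefore not independent, and the overlap that this alone would give was not tested. At the unadjusted threshold LID exceeded PD for 683 members (3.69%) and lay under it for 719 (3.88%). Of these, 51 of the LID-higher members were lower with PD98059, which is 7.47% of the LID list and 12.5% of the PD98059 list, and 22 were lower in LID and higher with PD98059 (3.06% and 6.36%), while 9 moved the same way in both. Leaving out any one of the 6 arrays gave 41 to 78 of the first kind, 16 to 57 of the second and 7 to 21 in the same direction. The first kind included Egr3, Dusp4, Sik1, Plaur, Fgf9, Fgf2, Inhba, Vgf, Trh, Th, Hspa5 and Dnaja1. Over all 10904 members above the dim level the fold changes of both comparisons had a Pearson r of -0.30, which ranged from -0.61 to 0.12 with an array left out and so depended on single arrays.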

How the data were processed

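RNA of 15 rat striata was measured on 1-colour arrays. The authors deposited log2 signals, which the submitters' processing notes credit to RMA in Affymetrix Expression Console. The software version and the genome build behind the array annotation are not given in the sources used here, nor is the level at which probes were summarised. Values were used as deposited.

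The comparison was fitted in limma 3.58.1 (lmFit, eBayes; R 4.3.3), two-sided, with 5 group means over 15 arrays and Benjamini-Hochberg adjustment over 36685 transcripts. Exact permutation tests ran over the 20 splits of 3 against 3 arrays. A gene with several transcripts was represented by the brightest. Of the transcripts, 575 had several symbols and 17599 had none, and these were not named. Figures were drawn with matplotlib 3.10.9. Scripts were tested on simulated data.

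Members and the 45 gene lists were chosen with earlier results of these data known. Genes were named as up to 20 per direction by p and 8 by size without overlap between groups and above the dim level, list members, and genes the study names for its arrays. The labels do not say whether rats shared a batch. The limma p-values and standard errors use a spread between rats pooled over all groups of the series, not over the compared groups alone. That spread was unequal in some lists and more even in others. For the mean of the activity-induced effectors the SD was 0.46 in LID + Vehicle and 0.12 in LID + PD98059 rats. It was 0.08 in LID, 0.04 in PD and 0.01 in Normal rats. Pooling can therefore understate the standard error of such genes. Alternatives were trend, robust, array weights, fewer arrays, centring, quantile normalization, a dim filter, a replicate block and leaving out each array.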

Additional observations from a re-analysis of the deposited data

How the results depend on the processing

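Under each of the 16 alternatives 0 transcripts with a single symbol passed the adjusted threshold, and the smallest adjusted p of a named gene was 0.262. Of 131 genes tested for this, the 82 with an unadjusted p under 0.05 kept their direction under all alternatives that could be fitted for them, and 18 of the others did not. With 1 array left out at a time, the log2 fold change was above 0 at its highest, without LID + Vehicle replicate 1, for Atf3 (-0.68 to 0.02), Bdnf (-0.31 to 0.34), Dusp2 (-0.52 to 0.21), Fosl1 (-0.71 to 0.13), Hbegf (-1.46 to 0.07), Junb (-0.73 to 0.11), Klf6 (-0.81 to 0.25), Lif (-1.58 to 0.19), Npas4 (-0.99 to 0.06) and Spred3 (-0.63 to 0.07). It also crossed 0 for Arnt (-0.17 to 0.03), Ccnd1 (-0.20 to 0.22), Epha2 (-0.07 to 0.03), Ephb2 (-0.30 to 0.01), Etv5 (-0.37 to 0.03), Nab2 (-0.18 to 0.02), Nr4a2 (-0.42 to 0.51) and Spry1 (-0.22 to 0.01). Array weights gave 0.06 for Bdnf and 0.03 for Epha2, and centring gave -0.03 for Nr4a2. The medians of 21 lists changed sign under some alternative, none of them larger than 0.21 in size with all arrays. Calls at the unadjusted threshold numbered 346 on the higher side and 409 on the lower side. Centring arrays on their medians gave 209 higher and 582 lower, and removing dim transcripts gave 137 higher and 315 lower. Fitting the 6 arrays alone gave 243 higher and 226 lower, so that which side held more calls depended on the setting. Leaving out 1 array gave 257 to 696 higher and 336 to 697 lower, the high end without LID + Vehicle replicate 3, while 552 were higher without LID + PD98059 replicate 2. The cause was not tested. Of 45 list medians over 629 alternatives 14 moved by more than the spread between arrays.

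With the replicate number as a block on 6 arrays 164 were higher and 226 lower, and 0 passed the adjusted threshold. Deviations of same-numbered arrays correlated at -0.237, 0.032 and 0.381, so the numbers were not taken to pair the rats. With 3 arrays per group, only large differences relative to a median standard error of 0.14 could pass. Differences of members under the dim level of 5.85 may be understated or may be background noise, which was not tested.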

Other observations

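Of 363 transcripts with a microRNA symbol, 9 were higher with PD98059 at the unadjusted threshold (2.48%, against 1.87% of all members) and 7 were lower (1.93%, against 2.21%), shares near those of all members, and their median log2 fold change was 0.04. Array probes of this kind report the precursor or its host transcript, not the mature microRNA. Mir219-2, whose product is known from oligodendrocytes, was 0.77 higher with overlapping groups.

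Several genes outside the lists stayed lower at the unadjusted threshold whichever array was left out, and were picked after their values were seen. Sstr2, a somatostatin receptor, was at 6.68, 5.86 and 7.13 in LID + PD98059 rats, against 6.97, 8.37 and 7.88 in LID + Vehicle rats, with overlap. Slc5a3, a myo-inositol transporter induced by osmotic stress, was at 5.56, 6.52 and 5.49 against 7.31, 7.37 and 5.98. Rhoq, a small GTPase, was at 7.47, 7.32 and 7.47 against 8.23, 8.27 and 7.77, and Ran, the GTPase of nuclear transport, at 8.55, 8.47 and 8.57 against 9.22, 8.97 and 8.70. Rhoq and Ran did not overlap between groups.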
